A study of Mus musculus with 7 samples.

Results

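The transcripts described here are the secreted and surface factors through which marrow stroma controls the making of osteoclasts, the cells that resorb bone. The 5 members were taken by symbol from the 53801 genes of the count tables. They are Tnfsf11 (RANKL), Tnfrsf11b (osteoprotegerin), Csf1 (M-CSF), Il34 (interleukin 34) and Sema3a (semaphorin 3A). Each member matched 1 Ensembl gene. RNA came from bone marrow mesenchymal stromal cells of male C57BL/6 mice, 8 weeks old when treatment began. One group of 4 mice was given an inhibitor of fibroblast activation protein (FAPi) by daily intraperitoneal injection for 35 days, 500 µg/kg in 100 µl. The other group of 3 mice was given the vehicle, DPBS, on the same schedule. Which inhibitor was used is not stated in the labels. From each sample 7000 live cells were sorted from limb bones by surface Pdgfra, with cells bearing CD45, Ter119 or Tie2 left out. The comparison asks how these transcripts differ in the stroma after inhibition of the protease.

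RANKL is a membrane-bound ligand of the tumour necrosis factor family that can be shed. It binds the receptor RANK on monocyte-lineage precursors and drives them to become osteoclasts. Osteoprotegerin is a soluble decoy receptor that captures RANKL, so the balance of the ligand and the decoy sets how much resorption is permitted. M-CSF and interleukin 34 are distinct cytokines that share the receptor Csf1r, through which they keep the precursors alive and dividing. Semaphorin 3A restrains osteoclast formation through neuropilin 1. In marrow, reticular cells of the adipocyte lineage, osteoblasts, osteocytes and hypertrophic chondrocytes are known sources of RANKL.

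Libraries held 7492570 to 10569690 counts. The sorted cells carried the markers of reticular stroma in every library. Pdgfra, the sorting marker, stood between 317 and 440 CPM, and Lepr, the leptin receptor gene, between 1354 and 1904 CPM. CPM are counts scaled to a common library size after TMM, which corrects for unequal library composition. The limit of 3 counts equals 0.284 to 0.400 CPM of the unscaled total, and covers counting error alone because the reads carry no molecular identifiers. Blood transcripts that the sort should remove were also present. The summed level of 10 erythroid markers ranged from 1889 to 15984 CPM in DPBS and from 1642 to 3341 CPM in FAPi libraries, with DPBS replicate 2 highest. At an unadjusted p under 0.05 in edgeR, 6 of the 10 erythroid markers and 7 of 11 neutrophil markers were lower in FAPi mice. So were 2 of 4 tested monocyte and macrophage markers and 2 of 5 megakaryocyte markers. In these lists 0 markers were higher at that level, and 0 passed the adjusted threshold. Of 8 tested B cell and plasma cell markers, 1 was higher and 1 lower at that level, each resting on 1 library, and 0 passed adjustment. The higher was Ms4a1, at 51.0 CPM in FAPi replicate 1 and 0.838 to 2.07 CPM in the other libraries. The lower was Jchain, at 34.9 CPM in DPBS replicate 2 and 1.12 to 1.86 CPM in the other libraries. Over all genes tested, 3.69% were lower and 4.45% higher at that level. The part of these cells in the results below was not tested. All results are from bulk RNA, in which fewer cells of a type and less RNA per cell cannot be told apart.

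The promoters of Tnfsf11, the member with the largest fold difference, and Csf1, the member with the narrowest spread, are shown. This pair was picked by those expression values, and no link of promoter letters to transcript level was tested. Both sequences are the 250 bases before the RefSeq transcription start on GRCm38.p6, which is the same assembly as mm10. Tnfsf11 lies on the minus strand, with the promoter at chr14:78308044-78308293, and Csf1 also on the minus strand, at chr3:107760470-107760719. Capitals mark matches, on either strand, to the motifs searched.
Tnfsf11: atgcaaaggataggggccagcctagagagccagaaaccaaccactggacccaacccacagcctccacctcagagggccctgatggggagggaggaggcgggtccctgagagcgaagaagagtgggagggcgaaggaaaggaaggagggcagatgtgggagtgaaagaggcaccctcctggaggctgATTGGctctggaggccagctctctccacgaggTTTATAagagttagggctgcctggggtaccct
Csf1: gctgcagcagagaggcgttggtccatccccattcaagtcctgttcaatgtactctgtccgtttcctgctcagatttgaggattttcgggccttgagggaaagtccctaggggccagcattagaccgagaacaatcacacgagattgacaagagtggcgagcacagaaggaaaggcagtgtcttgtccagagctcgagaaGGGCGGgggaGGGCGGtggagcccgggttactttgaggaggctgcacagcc
Searched were the TATA box as TATAAA and the CCAAT box as its name spells it. The motif of the factor Sp1 was searched as GGGCGG, and that of the Runx factors as TGTGGT. The cyclic AMP response element was searched as TGACGTCA. The AP-1 motif was searched as TGACTCA, and in its other central base as TGAGTCA. None of the marked matches overlapped. The Tnfsf11 window held 1 match to the TATA letters, which begins 32 bases before the start, and 1 to CCAAT, 64 bases before it. Both are on the strand opposite to the printed one, where they read TTTATA and ATTGG, and so are inverted relative to transcription. Of 32851 promoters of this length, 12.4% held the TATA letters and 33.8% held CCAAT. The Csf1 window held neither, and held 2 matches to GGGCGG, 51 and 41 bases before the start, a motif found in 32.7% of promoters. The letters of the cyclic AMP, AP-1 and Runx motifs were in neither window, and 1.55%, 4.46% and 14.0% of promoters held them. The windows were 60.4% and 56.4% G and C, against a median of 52.4% over all promoters. A match is a description of the letters and not a measured binding site.

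Tnfsf11, the gene of RANKL (ENSMUSG00000022015, chromosome 14, 78277445 to 78308043, mm10), had a level of 26.3, 21.5 and 23.9 CPM in DPBS replicates 1 to 3. In FAPi replicates 1 to 4 it stood at 92.9, 75.9, 187 and 25.1 CPM. Replicates 1, 2 and 3 of the FAPi group were above every DPBS library, and FAPi replicate 4 lay inside the DPBS range, so the groups overlapped. The DPBS mean was 23.9 ± 2.40 CPM (SD, n = 3), and the FAPi mean 95.3 ± 67.8 CPM (SD, n = 4). The DPBS libraries differed by 1.22-fold from lowest to highest, and the FAPi libraries by 7.46-fold. The log2 difference was 1.99 ± 0.57 (SE), a fold of 3.98 with a 95% interval of 1.65 to 9.58. It did not pass the threshold over all genes (adjusted p = 0.483, edgeR's quasi-likelihood test with Benjamini-Hochberg adjustment). In that test 0 of 12930 genes, or 0.0%, passed at an adjusted p under 0.05. The gene ranked 139 of 12930 by p. DESeq2 called it (adjusted p = 0.0376), as 1 of 130 genes that this method called among the 12930. The other alternatives gave adjusted p-values from 0.375 to 0.782 and log2 differences from 1.44, without FAPi replicate 3, to 2.32, without FAPi replicate 4.

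**Figure D1:**
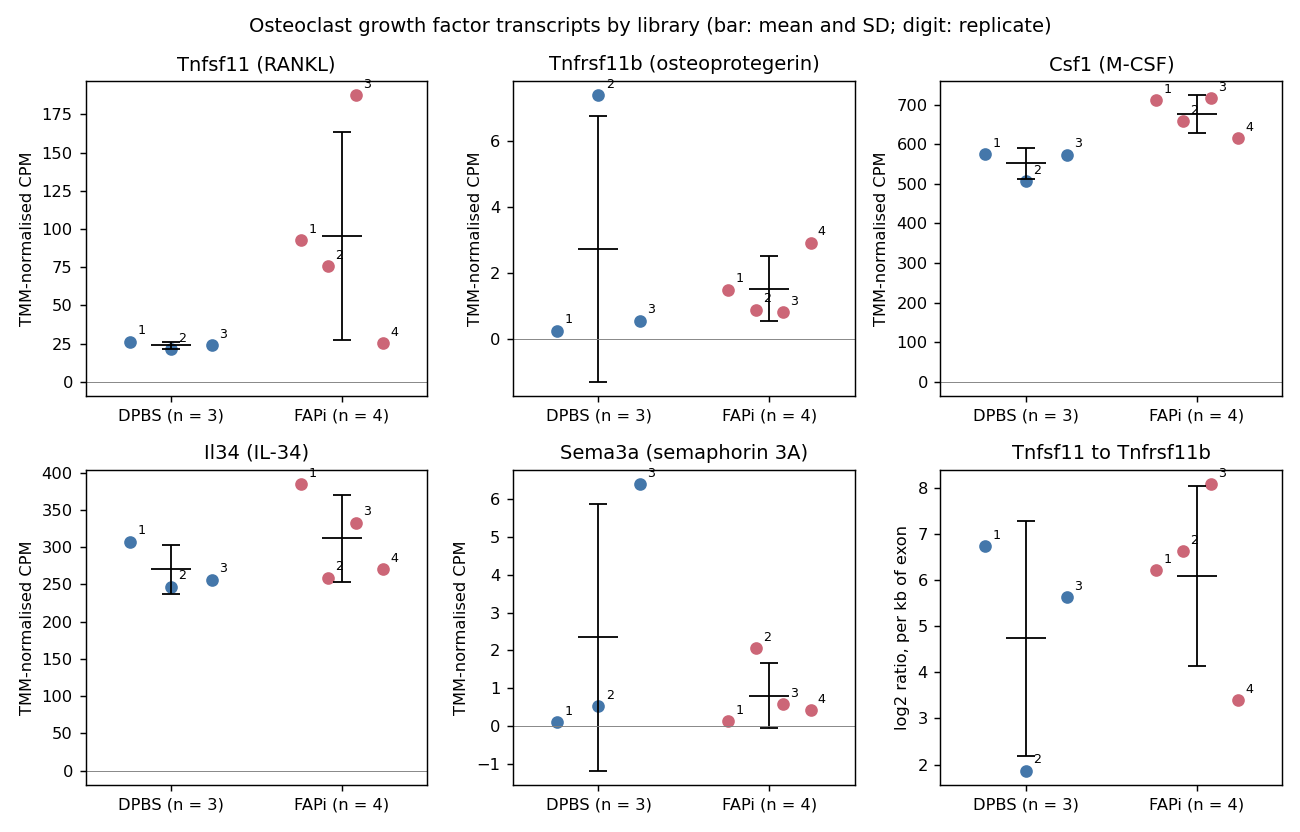
Level of each of the 5 transcripts in the 7 libraries (TMM-normalised CPM, linear axes), and the log2 ratio of Tnfsf11 to Tnfrsf11b per kb of exon. Points are libraries labelled with their replicate number, and bars are means with SD for DPBS (n = 3) and FAPi (n = 4); SD bars that pass below 0 belong to transcripts with 1 high library. Tnfsf11 is high in FAPi replicates 1 to 3 and at the DPBS level in replicate 4.

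Tnfrsf11b, the gene of osteoprotegerin (ENSMUSG00000063727, chromosome 15, 54250619 to 54278484), was close to the limit of counting in most libraries. Its counts were 3, 70 and 6 in DPBS replicates 1 to 3 and 12, 7, 7 and 21 in FAPi replicates 1 to 4. These correspond to 0.269, 7.39 and 0.565 CPM in DPBS and 1.51, 0.905, 0.815 and 2.93 CPM in FAPi libraries. DPBS replicate 2 was high and the other 2 DPBS libraries were below every FAPi library, so the groups overlapped. The log2 difference of -0.83 ± 1.19 (SE, edgeR adjusted p = 0.913) had a 95% interval from -3.45 to 1.80, and the direction turned to 1.84 without DPBS replicate 2. That library also had the highest erythroid and neutrophil marker sums, 15984 and 2853 CPM. Their part in the value was not tested.

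The log2 ratio of RANKL to osteoprotegerin transcripts, per kb of exon and with 0.5 added to each count, was 6.73, 1.87 and 5.62 in DPBS and 6.22, 6.63, 8.08 and 3.40 in FAPi libraries. RANKL transcripts exceeded those of the decoy in 7 of 7 libraries, and the groups overlapped. The DPBS mean was 4.74 ± 2.55 (SD, n = 3) and the FAPi mean 6.08 ± 1.96 (SD, n = 4), a difference of 1.34. DPBS replicate 2, with the most decoy counts, had the lowest ratio, and without it the difference was -0.09. The difference was 0.68 without FAPi replicate 3, 1.78 without DPBS replicate 3, 2.33 without DPBS replicate 1 and 2.23 without FAPi replicate 4. No test was made of this ratio, since both genes were chosen with earlier results known.

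Csf1, the gene of M-CSF (ENSMUSG00000014599, chromosome 3, 107741048 to 107760469), was abundant and even. It stood at 575, 506 and 574 CPM in DPBS and at 712, 659, 716 and 615 CPM in FAPi libraries. Each FAPi library was above each DPBS library on this scale, a property shared by 7.34% of all genes tested, counted in either direction. The difference was 0.29 ± 0.20 on the log2 scale (SE), with a 95% interval of -0.15 to 0.74, and did not pass (adjusted p = 0.747, edgeR). In the CPM values as deposited, without TMM scaling, the groups overlapped, with means of 591 ± 80.4 (SD, n = 3) and 642 ± 84.8 CPM (SD, n = 4). Scaling by total count alone moved the median log2 difference of all genes by -0.17, and that of Csf1 to 0.12. The 95% interval as fitted reaches 1.67-fold. Of 135 genes of similar mean level, 2.96% had a lower biological coefficient of variation, edgeR's measure of spread between replicates. The same measure placed Tnfsf11 above 82.6% of 1646 genes of its level.

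Il34 (ENSMUSG00000031750, chromosome 8, 110741829 to 110805924), the other ligand of Csf1r, stood at 307, 247 and 256 CPM in DPBS and at 385, 259, 333 and 270.1 CPM in FAPi libraries. The ranges overlapped, with FAPi replicates 1 and 3 above the DPBS libraries. The log2 difference was 0.21 ± 0.24 (SE, adjusted p = 0.881, edgeR), with a 95% interval of -0.33 to 0.74. Exons of the antisense genes Gm15894 and Gm15895 overlap Il34, and with no strand setting known their reads cannot be told from its own.

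Sema3a (ENSMUSG00000028883, chromosome 5, 13125414 to 13602565) did not pass the filter on low counts and was not tested. Its counts were 1, 5 and 68 in DPBS and 1, 16, 5 and 3 in FAPi libraries. DPBS replicate 3 was high, and 3 of 7 libraries were at or below 3 counts. The 3 alternatives in which it was fitted gave log2 differences of -1.54 with no low-count filter, -2.11 without DPBS replicate 1 and -2.01 without DPBS replicate 2. In all of them DPBS replicate 3 was included.

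Levels can be compared between genes only per length. Per kb of the union of exons, Il34 was highest, with a DPBS mean of 138 ± 16.6 CPM (SD, n = 3) and a FAPi mean of 159 ± 29.9 CPM (SD, n = 4). Csf1 followed at 104 ± 7.48 and 128 ± 9.08 CPM per kb, and Tnfsf11 at 10.7 ± 1.07 and 42.6 ± 30.3. Tnfrsf11b had 0.973 ± 1.43 and 0.546 ± 0.347 CPM per kb, and Sema3a 0.169 ± 0.254 and 0.0576 ± 0.0625. Il34 and Csf1 kept this order in 7 of 7 libraries, and in 6 of 7 when the longest transcript was used as the length, so these neighbours are not separated firmly. Csf1 exceeded Tnfsf11, and Tnfsf11 exceeded Tnfrsf11b, in 7 of 7 libraries. Tnfrsf11b and Sema3a were in this order in 6 of 7 and, with the longest transcript, in 5 of 7 libraries, and their spreads overlapped. Among the 12930 genes tested, the mean level per kb of Il34 lay at the 97.5 percentile in DPBS, that of Csf1 at 96.7, and that of Tnfsf11 at 72.8. In FAPi mice Tnfsf11 lay at the 91.2 percentile, a mean that 3 of the 4 libraries carry.

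The receptors of these ligands were next examined, as the first of 5 lists that hold 69 other genes of osteoclast control. Over all 5 lists 53 genes passed the filter, and 0 passed the adjusted threshold in either direction. At an unadjusted p under 0.05, 5 of the 53 were higher and 1 lower in FAPi mice, 11.3% in all. Over all genes tested 8.14% reached that level, 4.45% as higher and 3.69% as lower. The groups did not overlap at 6 of the 53 genes, 11.3%, against 7.34% of all genes. The median log2 difference of the 53 was 0.14, against 0.01 over all genes. Of the 53 estimates 29 were above 0, as were 50.6% over all genes. The lists were chosen with earlier results of these data known, so these shares are a description and not a test.

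Of 10 receptor genes 6 were tested, with 2 estimated higher and 4 lower. Tnfrsf11a, the gene of RANK, had 0 counts in all libraries, and Csf1r, the receptor of M-CSF and interleukin 34, had 0 to 1.51 CPM, so neither receptor of the osteoclast precursor was measured above the floor in most libraries. Lgr4, which encodes a receptor for R-spondins that can also bind RANKL, stood at 445, 481 and 553 CPM in DPBS and at 470, 1740, 943 and 742 CPM in FAPi libraries. FAPi replicate 2 was far above the rest and FAPi replicate 1 lay within the DPBS range. Its log2 difference was 0.98 ± 0.38 (SE, adjusted p = 0.550, edgeR), and 0.53 without FAPi replicate 2. Nrp1, the neuropilin through which semaphorin 3A acts, had a DPBS mean of 393 ± 46.4 CPM (SD, n = 3) and a FAPi mean of 434 ± 61.2 CPM (SD, n = 4), and a microRNA gene overlaps its exons. The direction of Nrp1 turned to -0.02 with total count scaling. Plxna1, a plexin coreceptor for class 3 semaphorins, had 54.5 ± 12.5 and 42.1 ± 8.72 CPM. Sdc1, a proteoglycan that can bind interleukin 34, was separated between the groups, at 173 to 190.5 CPM in DPBS and 146 to 165 CPM in FAPi libraries, with a log2 difference of -0.21 ± 0.23 (SE, adjusted p = 0.870, edgeR).

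Proteases that shed RANKL from the membrane were measured at 4 of 5 genes. Adam10 stood at 194, 309 and 320 CPM in DPBS and at 409, 717, 382 and 394 CPM in FAPi libraries. Every FAPi value was the higher, and FAPi replicate 2 was the highest library. The log2 difference was 0.80 ± 0.31 (SE, adjusted p = 0.547, edgeR), and 0.52 without FAPi replicate 2. Adam19 was also separated, at 4.96 to 10.5 CPM in DPBS and at least 13.4 CPM in each FAPi library (adjusted p = 0.627, edgeR), and antisense genes overlap its exons. Adam17 had 22.5 to 52.8 CPM in DPBS and 16.9 to 35.5 CPM in FAPi libraries, with a log2 difference of -0.41 that turned to 0.02 without DPBS replicate 1. Its exons overlap Iah1 on the other strand. Mmp14, a membrane metalloproteinase, had 266 ± 138 and 260.5 ± 43.5 CPM.

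Hormone and cytokine inputs that raise RANKL in stroma were tested at 17 of 21 genes, with 12 estimated higher and 5 lower. Vdr, the vitamin D receptor gene, stood at 35.8, 62.5 and 76.5 CPM in DPBS and at 140, 353, 109 and 111 CPM in FAPi libraries. Each FAPi library was above each DPBS library, and FAPi replicate 2 was again the highest. The log2 difference was 1.61 ± 0.48 (SE, adjusted p = 0.483, edgeR), and 1.03 without FAPi replicate 2. Lifr, which encodes a receptor chain for leukemia inhibitory factor and oncostatin M, stood at 276, 268 and 336 CPM in DPBS and at 453, 679, 415 and 449 CPM in FAPi libraries. It was separated too, with a log2 difference of 0.77 ± 0.25 (SE, adjusted p = 0.490, edgeR). Il11ra1, an interleukin 11 receptor gene whose exons overlap Ccl27a on the other strand, had 30.3 ± 8.11 and 43.9 ± 11.2 CPM. Il6ra, the interleukin 6 receptor gene, which overlaps an antisense gene, stood at 6.27, 1.69 and 10.1 CPM in DPBS and at 0.753, 26.9, 11.8 and 21.2 CPM in FAPi libraries. FAPi replicate 1 was below every DPBS library and the other FAPi libraries were above them. The log2 difference of 1.33 for Il6ra was 0.89 without DPBS replicate 2, 0.90 without FAPi replicate 2, 0.80 with voom weights, 0.69 with limma on deposited CPM and 0.38 in the replicate block.

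Inputs known to raise osteoprotegerin were tested at 10 of 11 genes, with 6 estimated higher and 4 lower. Jag1, a Notch ligand gene, stood at 388, 394 and 543 CPM in DPBS and at 893, 1905, 662 and 844 CPM in FAPi libraries. Every FAPi value was the higher, and FAPi replicate 2 was the highest. The log2 difference was 1.28 ± 0.36 (SE, adjusted p = 0.483, edgeR), and 0.84 without FAPi replicate 2. Bmp2, a bone morphogenetic protein gene, stood at 21.4, 28.3 and 9.14 CPM in DPBS and at 6.03, 4.52, 11.8 and 5.16 CPM in FAPi libraries, with overlap. Its log2 difference was -1.51 ± 0.61 (SE, adjusted p = 0.565, edgeR). Ctnnb1, the gene of beta-catenin, had 19.1 ± 6.59 and 47.9 ± 26.8 CPM, and its exons overlap Ulk4. Lrp6, a Wnt coreceptor gene, had 39.2 ± 10.1 and 60.2 ± 13.5 CPM. FAPi replicate 2 held the highest value of 12 of the 53 tested genes of the 5 lists, 22.6%, and of 14.1% of all genes. DPBS replicate 1 held that of 10 of the 53, 18.9%, and of 11.1% of all genes. The remaining libraries held 7.55% to 13.2% of the 53, and 12.8% to 17.5% of all genes.

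Other stromal regulators of osteoclasts were tested at 16 of 22 genes, with 7 estimated higher and 9 lower, and 0 reached an unadjusted p under 0.05. Sfrp1, a secreted Wnt antagonist that can bind RANKL, stood at 198, 175 and 142 CPM in DPBS and at 199, 182, 304 and 308 CPM in FAPi libraries. Tnfsf10 encodes TRAIL, a second ligand that osteoprotegerin captures. It was at 21.7 CPM in DPBS replicate 1 and between 0.754 and 1.68 CPM in the other 6 libraries, and its log2 difference of -2.57 turned to 0.59 without DPBS replicate 1. Vegfa, an angiogenic factor, had 48.4 ± 11.1 and 78.3 ± 33.6 CPM. Ccl7, a monocyte chemokine, had 55.3 ± 33.2 and 33.8 ± 8.22 CPM, and its log2 difference of -0.71 became -0.11 without DPBS replicate 2.

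**Figure D2:**
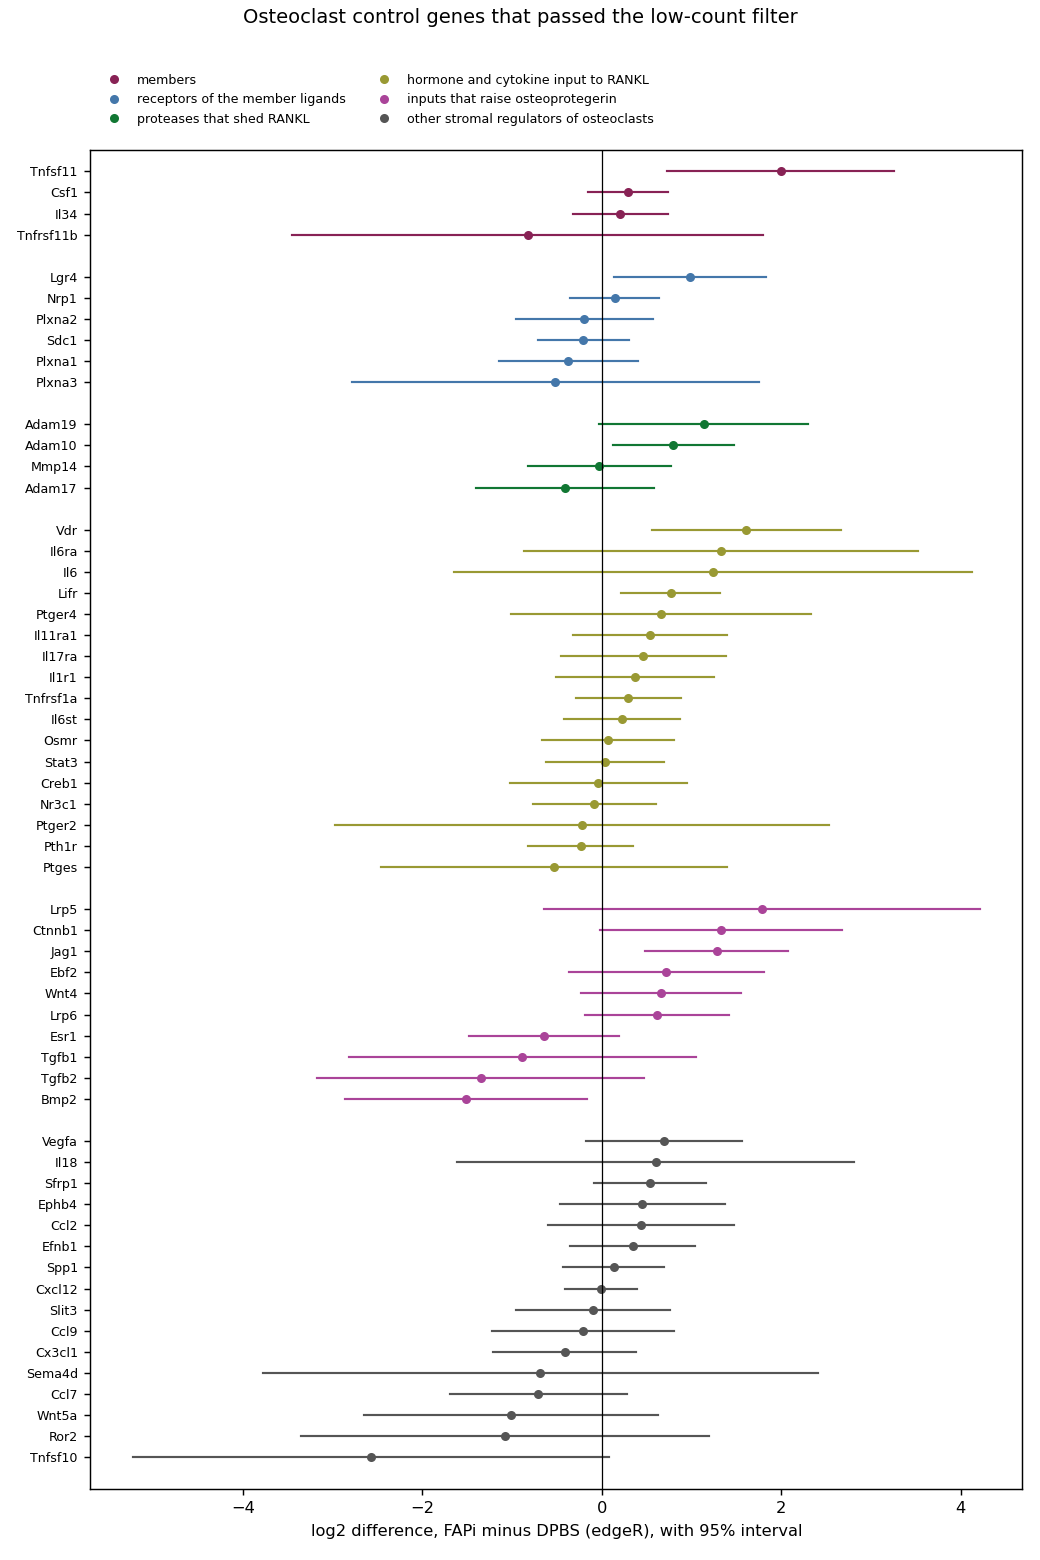
Log2 difference, FAPi minus DPBS, with its 95% interval (edgeR) for the 4 tested members and the 53 tested genes of the 5 lists, coloured by role. The interval of Tnfsf11 (0.73 to 3.26) lies above 0, as do those of Lgr4, Adam10, Vdr, Lifr and Jag1, and that of Bmp2 lies below it; 0 genes passed after adjustment.

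The cell types that the sort could hold were checked beside Tnfsf11. Of 11 T and NK cell markers, Cd3d, Cd3e, Cd8a, Trac, Il2rb and Klrb1c had 0 counts in all libraries. The summed level of the list was 1.23 to 20.2 CPM in DPBS and 2.39 to 23.1 CPM in FAPi libraries. FAPi replicate 3, the highest in Tnfsf11, had 21.8 CPM of Lck, and DPBS replicate 2, at 20.2 CPM in the sum, had the lowest Tnfsf11 level. The part of T and NK cells in the Tnfsf11 values was not tested. Of the osteocyte markers Sost and Fgf23, and of the chondrocyte markers Col10a1 and Matn3, no counts were found. The osteocyte list summed to 93.5 to 96.3 CPM in DPBS and 68.7 to 145 CPM in FAPi libraries, and the chondrocyte list to 69.4 to 82.3 and 85.7 to 159 CPM. The osteocyte sums overlapped, and the chondrocyte sum was higher in each FAPi library than in each DPBS library, highest in FAPi replicate 4. Of 7 chondrocyte markers 3 were tested, with 2 estimated higher and 1 lower. The only 1 at an unadjusted p under 0.05 in edgeR was Col2a1, and Sox9 and Comp were more abundant. Col2a1, the type II collagen gene of cartilage, had 4.54 to 18.5 CPM in DPBS and 15.4 to 53.9 CPM in FAPi libraries, with overlap. Its log2 difference was 1.52 ± 0.65 (SE, adjusted p = 0.582, edgeR). The part of these cells in the Tnfsf11 difference was not tested. The osteoblast list summed to 17331 to 30045 CPM and 15081 to 26852 CPM, with overlap.

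Markers of the adipocyte lineage, which includes reticular cells known to make RANKL, were summed in the same way. Of the 14 marker lists this one was singled out after its values and those of Tnfsf11 had been seen. The sum of 8 markers, led by Apoe, Adipoq and Lpl, was 6739 to 7114 CPM in DPBS. It was 6076, 4841 and 5369 CPM in FAPi replicates 1 to 3 and 6700 CPM in FAPi replicate 4. FAPi replicate 4, with Tnfsf11 at the DPBS level, was nearest to the DPBS libraries in this sum. The markers differed in this: in FAPi replicate 4 Lpl was at 1373 CPM, above every DPBS library, and Adipoq at 1479 CPM, inside the DPBS range, while Apoe, at 3581 CPM, was below every DPBS library. Whether the sum has a part in the Tnfsf11 difference was not tested. Of the 6 markers tested, 0 passed the adjusted threshold in edgeR, and 0 reached an unadjusted p under 0.05. Markers of reticular stroma summed to 22509 to 26625 CPM in DPBS and 21696 to 28905 CPM in FAPi libraries.

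Markers of osteoclasts were measured in the sorted cells as well. Calcr, Dcstamp, Ocstamp and Oscar, genes of the mature osteoclast, had 0 counts in all libraries. Ctsk, the cathepsin K gene, which stromal cells also express, stood at 99.6, 105 and 100.4 CPM in DPBS and at 52.1, 63.8, 93.3 and 80.3 CPM in FAPi libraries. Every FAPi value was the lower, and the log2 difference was -0.49 (adjusted p = 0.714, edgeR). Of 6 osteoclast markers tested, 6 were estimated lower and 0 reached an unadjusted p under 0.05. Acp5, the gene of tartrate-resistant acid phosphatase, ranged from 12.5 to 18.2 CPM in DPBS and from 3.26 to 35.6 CPM in FAPi libraries, with FAPi replicate 3 highest.

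**Figure D3:**
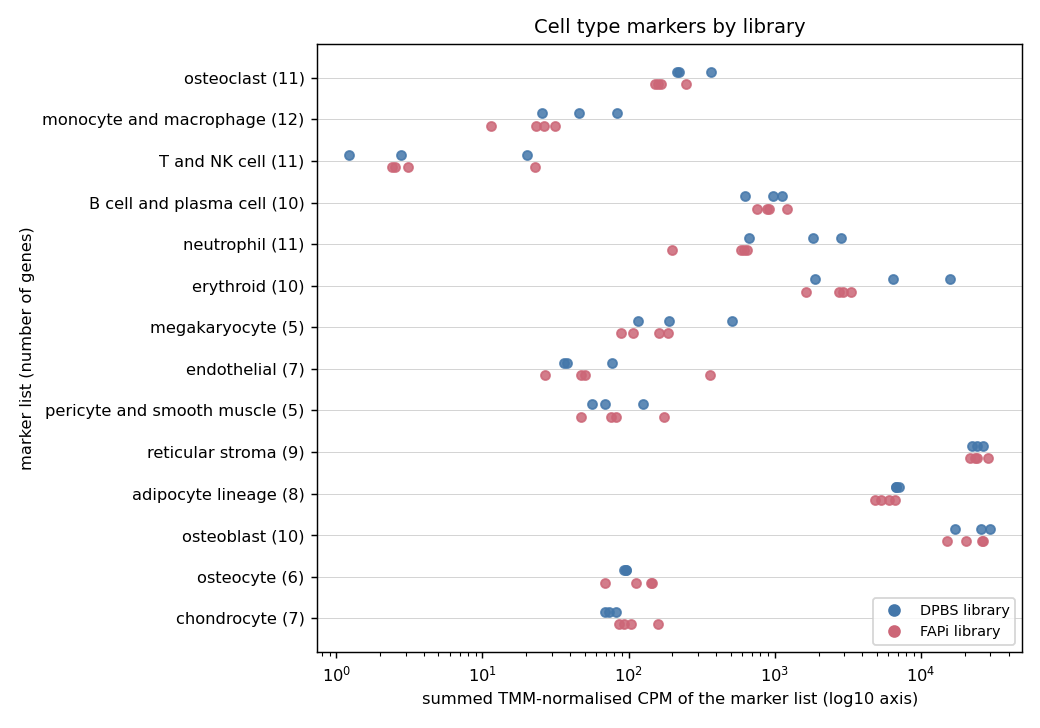
Summed level of each marker list (TMM-normalised CPM, log10 axis) in 3 DPBS and 4 FAPi libraries, 1 point per library, with the number of markers in brackets. Adipocyte lineage sums are 6739 to 7114 CPM in DPBS and 4841 to 6700 CPM in FAPi libraries, and erythroid sums reach 15984 CPM in DPBS replicate 2.

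Transcripts with a pattern like that of Tnfsf11 were ranked by Pearson's r of log2 CPM over the 7 libraries, among 9622 named genes with a mean of at least 5 CPM. The r values are given as a description and carry no p, since the genes were selected as the highest, and 31 genes reached an r of at least 0.9. Vipr2, which encodes a receptor of vasoactive intestinal peptide, ranked first (r = 0.99). It stood at 19.8, 17.4 and 17.7 CPM in DPBS and at 35.8, 29.5, 41.4 and 17.6 CPM in FAPi libraries. As with Tnfsf11, FAPi replicate 3 was highest and FAPi replicate 4 was at the DPBS level. Pds5a, a cohesin regulator gene overlapped by antisense genes (r = 0.97), had its highest level, 132 CPM, in the same library. Cuedc1 (r = 0.95) reached 84.1 CPM there, also its highest level. Herpud1, a gene of the endoplasmic reticulum stress response (r = 0.96), stood at 535, 477 and 581 CPM in DPBS and at 850, 1009, 1191 and 464 CPM in FAPi libraries. None of these 4 genes passed the adjusted threshold (adjusted p from 0.574, for Pds5a, to 0.760, for Cuedc1, edgeR). Relative to the DPBS mean, FAPi replicate 3 held 7.83 times the level of Tnfsf11, 2.26 times that of Vipr2, 2.92 times that of Pds5a and 2.24 times that of Herpud1.

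**Figure D4:**
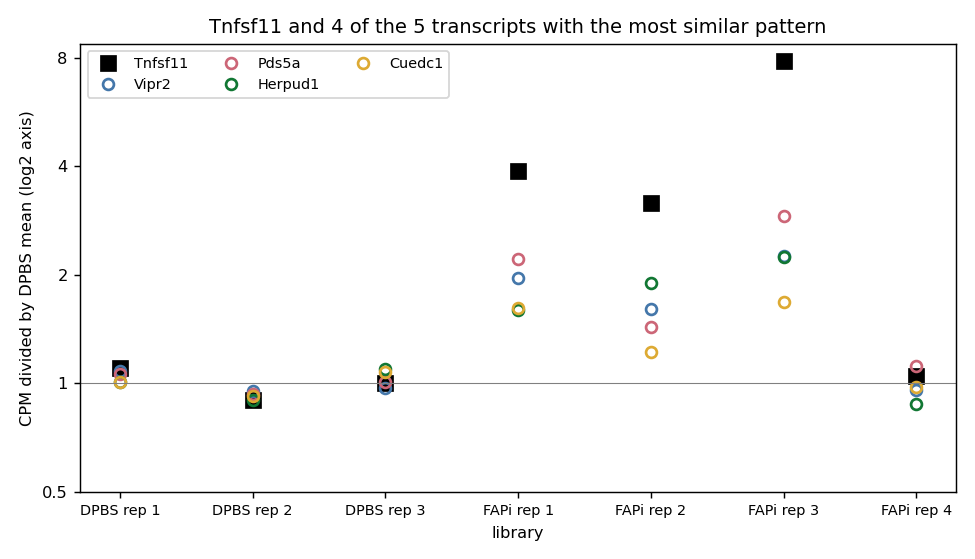
CPM divided by the mean of the 3 DPBS libraries (log2 axis) for Tnfsf11, filled squares, and 4 of the 5 most similar transcripts, open circles, in each of the 7 libraries. In FAPi replicates 1 to 3 all of these transcripts lie above the DPBS libraries, with Tnfsf11 at 7.83 in replicate 3, and in FAPi replicate 4 they are near 1.

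After TMM, the members most alike in order were Tnfsf11 and Csf1. In the FAPi group both were highest in replicate 3, followed by replicates 1, 2 and 4, though Csf1 was at 716 and 712 CPM in replicates 3 and 1. In the deposited CPM the order of Csf1 was replicates 1, 3, 4 and 2 (731, 695, 588 and 553 CPM), and Tnfsf11 kept its order. The shared order therefore holds with TMM and not in the deposited CPM. The spread of Csf1 within the FAPi group after TMM, 1.16-fold from lowest to highest, was far below that of Tnfsf11. The transcripts most like Csf1 were Arl10 (r = 0.96), the clock gene Per2 (r = 0.96) and Adam19 (r = 0.96), which is also among the shedding proteases above. Per2 stood at 13.3, 10.4 and 16.8 CPM in DPBS and at 28.6, 22.4, 36.5 and 22.9 CPM in FAPi libraries, without overlap. Its log2 difference was 1.03 ± 0.44 (SE, adjusted p = 0.582, edgeR).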

How the data were processed

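The authors deposited, per library, a table of whole-number counts for 53801 Ensembl genes and a table of CPM made from them. The submitters' processing notes name STAR, HTSeq and mm10, without versions, annotation or strand setting. The deposited CPM equal the counts over the library total to within 4.55e-05 CPM. In 6 of 7 CPM tables the last lines are repeated, and repeats were dropped. Symbols and coordinates come from GENCODE release M21 (mm10), which held 53706 of the IDs. Promoters come from RefSeq on GRCm38.p6, which held 3 of the 5 members. That of Sema3a is not shown, because its RefSeq start differs from its gene start in GENCODE.

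Counts were fitted over all genes with edgeR 4.0.16 in R 4.3.3 (filterByExpr with a minimum count of 10, TMM, robust quasi-likelihood test), which tested 12930 genes, with Benjamini-Hochberg adjustment at 0.05. Log2 differences are FAPi minus DPBS, and the SE is the absolute log2 difference over the square root of F. The functions were tested on simulated data. DESeq2 1.42.0, limma 3.58.1 (voom with sample weights, and the deposited CPM), other scalings, no filter, a replicate block and the omission of each library were alternatives. Libraries differed beyond sampling noise (chi-square over degrees of freedom at least 72.8). The design gives separate mice, and each p-value sets the group difference against the estimated spread between these samples.

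Members and lists were chosen with earlier results of these data known. Named were the members, up to 4 genes per list by smallest p, the 5 genes most like Tnfsf11 and 3 most like each other tested member (Pearson's r, mean of at least 5 CPM, prior count of 2), and up to 3 abundant markers per cell type. Acp5, Pdgfra, Csf1r, Tnfrsf11a and markers at 0 counts were named in addition, after their values were seen. Of the 5 genes most like Tnfsf11, 1 is not reported here.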

Additional observations from a re-analysis of the deposited data

Results flagged for a closer look

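A library standing apart from its group was looked for in 25 values of the FAPi mice, as the gap to the closest library divided by the range (critical value 0.829). The check was made on CPM after TMM, with a factor of 0.841 for FAPi replicate 2 and 0.960 to 1.03 for the other FAPi libraries. It was not made on the deposited CPM, so its marks are given for TMM scaling alone. The check marked 4. For independent, normally distributed values it marks about 1 in 20, or 1.25. These values share the same libraries and most are of genes chosen by smallest p, so the check cannot show an excess over that rate. The DPBS group of 3 was not checked. Adam10 reached 717 CPM in FAPi replicate 2, while the rest of the group had 382 to 409 CPM (ratio 0.918). For Vdr the same library had 353 CPM, and the rest 109 to 140 CPM (ratio 0.874). Lifr reached 679 CPM there, against 415 to 453 CPM (ratio 0.855). Ccl7 was lowest in FAPi replicate 4, with 21.5 CPM against 37.1 to 38.8 CPM (ratio 0.902). The 3 high values share 1 library, so they are not independent of each other, and Tnfsf11 was not marked.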

How the results depend on the processing

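Tnfsf11, Csf1 and Il34 had the same direction in all 15 alternatives (log2 differences of 1.44 to 2.32, 0.12 to 0.34 and 0.02 to 0.30). Tnfsf11 passed in DESeq2 alone (2.02), and leaving out 1 library gave 1.44 to 2.32. Tnfrsf11b turned to 0.64 with voom weights and ranged from -1.37 to 1.84 when 1 library was left out, the positive value coming without DPBS replicate 2. DESeq2 gave it no p, and it was below the filter without FAPi replicate 1 or 4 and in the replicate block. Sema3a, below the filter as fitted, had a value in 3 alternatives: -1.54 with no low-count filter, -2.11 without DPBS replicate 1 and -2.01 without DPBS replicate 2. The ratio of Tnfsf11 to Tnfrsf11b ranged from -0.0941 to 2.33 when 1 library was left out. Over all genes edgeR called 0 in each direction (1053 genes had an unadjusted p under 0.05). DESeq2 called 81 higher and 49 lower, the fit with no low-count filter 5 and 1, and limma on deposited CPM 4 and 2 at either pseudocount (1 or 0.5). Voom weights, or a threshold of 0.1, gave 1 higher. Omission of single libraries gave at most 2 higher and 1 lower (without DPBS replicate 3), and otherwise 0. The cause was not tested. Of the genes in the 5 lists, 0 were called under any alternative, with 4 to 9 at an unadjusted p under 0.05. Nrp1 turned to -0.017 with total count scaling and to -0.033 and -0.0331 with limma on deposited CPM + 1 and + 0.5. Mmp14 turned to 0.0073 with DESeq2 and RLE scaling, 0.0507 with voom weights and 0.034 in the replicate block, and ranged from -0.38 to 0.37 when 1 library was left out. In the same omissions Adam17 ranged from -0.64 to 0.0202, and Tnfsf10 from -3.11 to 0.59. Libraries of the same replicate number showed no shared deviation from their group means (correlations -0.01, -0.02 and -0.05). Libraries of different numbers were likewise near 0 (-0.0323 to 0.045). With so few libraries this check cannot show that they were unpaired. The replicate block, on replicates 1 to 3 of each group, gave 0 calls, 704 genes at an unadjusted p under 0.05 and 2.20 for Tnfsf11 (adjusted p = 0.611). Depth limits Tnfrsf11b and Sema3a, which had 3 counts or fewer in 1 and 3 libraries.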

Other observations

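Tnfrsf11b shared its pattern with Ttc23 (r = 0.98 over 7 libraries), Mfhas1 (r = 0.97) and Zfp688 (r = 0.96), each highest in DPBS replicate 2 and next in FAPi replicate 4. Ttc23 stood at 4.84, 52.8 and 5.47 CPM in DPBS and at 12.7, 9.18, 11.4 and 30.2 CPM in FAPi libraries. Exons of Ttc23 overlap Synm on the other strand, and those of Mfhas1 overlap an antisense gene. Il34 was most like Lss (r = 0.98), the lanosterol synthase gene, Kremen1 (r = 0.98), a Wnt antagonist receptor gene, and Osbpl11 (r = 0.96), all 3 highest in FAPi replicate 1. Lss stood at 9.50, 2.64 and 2.73 CPM in DPBS and at 129.8, 3.10, 22.8 and 3.07 CPM in FAPi libraries, so 1 library holds most of its signal, and an antisense gene overlaps it. These r values were selected as the highest and carry no p.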
